A study of Homo sapiens with 4 samples.

Results

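The genes described here encode the machinery that licenses replication origins, unwinds DNA and copies it at the fork. They were taken by symbol from a written list of 50 genes, and all 50 were found among the 20263 genes of the count table by Ensembl identifier. RNA was sequenced from MDA-MB-231, an established human triple-negative breast cancer cell line. The cells were given YW-LF for 24 h (n = 2 libraries) or were labelled DMSO (dimethyl sulfoxide, a common solvent for drugs; n = 2 libraries), and both groups grew in DMEM with serum and antibiotics. The series title describes YW-LF as a derivative of ribociclib, which inhibits the cell cycle kinases CDK4 and CDK6, and names the p53 pathway. The labels give no dose. The labels do not say whether replicates were separate cultures, so p-values measure the spread between these libraries, which may be technical.

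Origins are licensed in G1 phase, when the origin recognition complex (ORC), CDC6 and CDT1 load the ring of MCM2 to MCM7 onto DNA. In S phase the kinase CDC7 with its activator DBF4, together with cyclin-dependent kinases, lets CDC45 and the GINS complex join the ring, which then unwinds DNA ahead of polymerases alpha, delta and epsilon. Many of these genes are transcribed late in G1 by E2F factors, which the retinoblastoma protein holds inactive until cyclin-dependent kinases phosphorylate it. In dividing cancer cells the MCM proteins and PCNA serve as markers of proliferation.

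Levels are given as TMM-scaled CPM, a read count relative to library size after scaling by the trimmed mean of M-values. Library totals ran between 34774542 and 40218240 counts, so 1 count equalled 0.0199 to 0.0324 CPM. All 50 members passed the filter on low counts, and the lowest count of any member was 248 (CDC7 in YW-LF replicate 2). The YW-LF libraries stood apart from each other: over 13816 genes tested, the log2 difference between replicates had an SD of 1.24 in YW-LF and 0.61 in DMSO, and over the 50 members 0.93 in YW-LF and 0.32 in DMSO. The share of counts from the mitochondrial genome was 3.14% and 6.58% in YW-LF replicates 1 and 2, against 8.68% and 21.7% in DMSO replicates 1 and 2. Markers of the line were present (VIM at 2122 to 4154 CPM), ESR1, PGR and CDH1 were at 1.73 CPM or less, and of the white blood cell markers PTPRC was at 0.588 CPM or less, CD14 at 0.508 CPM or less and CD3E at 0. ERBB2 and EPCAM, low in this line by common description, were at 30.2 to 71.9 CPM and 5.53 to 9.35 CPM.

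Most replication genes had lower levels in cells given YW-LF than in cells given DMSO. In 40 of the 50 members, each YW-LF library was below each DMSO library, an arrangement found in 27.8% of all genes tested. The opposite arrangement held for 1 member (RPA3), beside 28% of all genes tested, so 41 members did not overlap, beside 55.8% of all genes tested. The members together took 0.207% and 0.224% of counts in YW-LF replicates 1 and 2, and 0.479% and 0.397% in DMSO replicates 1 and 2. The median log2 fold change over the members was -1.07, beside 0.063 over all genes tested. The largest differences among the members were in the checkpoint mediator CLSPN (-3.32) and the helicase subunit MCM3 (-2.88). In these bulk samples, fewer cells in S phase and less RNA per cell cannot be told apart.

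No member passed the test over all genes. The quasi-likelihood test of edgeR with Benjamini-Hochberg adjustment called 0 of 50 members lower and 0 higher, and it called 0% of all genes in either direction. At an unadjusted p under 0.05, 26 members were lower and 1 was higher, against 9.01% and 11.5% of all genes tested. DESeq2 called 16 members lower and 1 higher, against 4.26% and 5.77% of the genes to which it gave an adjusted p. With the replicate number as a block edgeR called 8 members lower and 0 higher, against 1.05% and 1.35% of all genes tested, and without a count filter 6 lower and 0 higher, against 0.718% and 0.927%. The count called by edgeR depended on single libraries, over all genes as well as among the members. In fits with 1 library left out the remaining pair alone sets the spread, so only effect sizes are given here. With YW-LF replicate 1 left out, the median log2 fold change was -0.87 over the members and -0.045 over all genes tested. With the other YW-LF library left out, these medians were -1.54 and 0.018. Leaving out DMSO replicate 1 gave -1.13 and 0.125, and leaving out the other DMSO library gave -1.07 and 0.095. The count of members with YW-LF below DMSO was 41 to 47 when 1 library was left out. With fewer libraries to compare, this condition is easier to meet, so these counts cannot show whether the 40 members are stable.

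**Figure D1:**
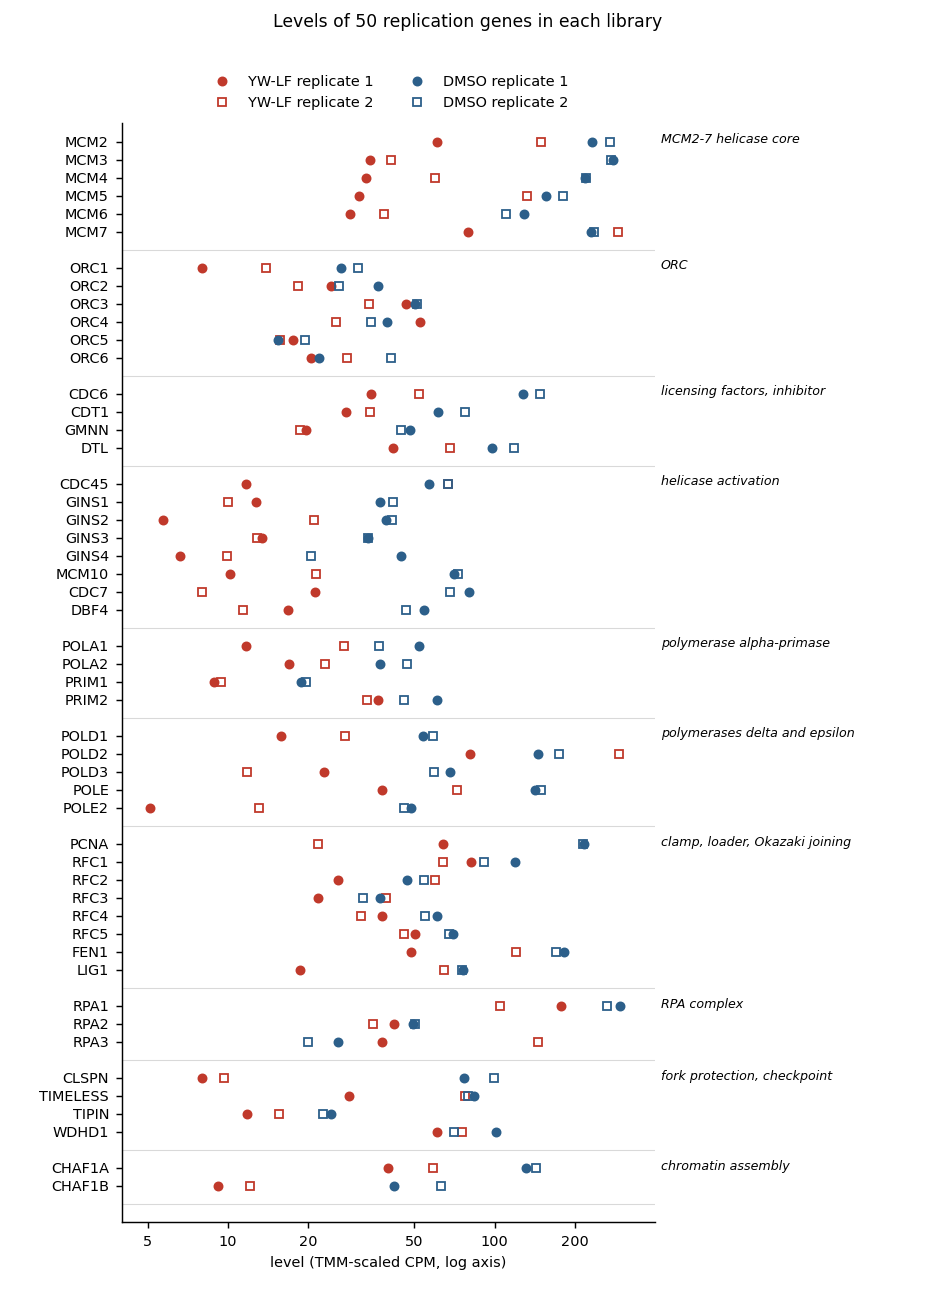
Level of each of the 50 replication genes in TMM-scaled CPM on a log axis, grouped by subcomplex, with YW-LF libraries in red, DMSO libraries in blue, replicate 1 as filled circles and replicate 2 as open squares. For 40 genes both red symbols lie left of both blue ones, and for RPA3 both lie to the right.

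The promoters of 44 members were available as windows from 250 bases before to 50 bases after an annotated start (RefSeq, GRCh38.p14; 55 windows, since some genes have several starts). The promoters of GINS4, MCM4, MCM5, POLD3, RPA2 and RPA3 were not analysed here. The windows were searched on both strands for the E2F-type words TTTCCCGC, TTTCGCGC, TTTGCCGC and TTTGGCGC, and for CCAAT, the word bound by NF-Y. Of the 44 genes, 22 (50%) held an E2F-type word, against 6.43% of the 10998 tested genes with a window, and in single windows the share was 40% against 4.70% of the 16055 windows of tested genes and 3.31% of all 35116 windows. CCAAT was in 26 members (59.1%) against 43.1% of tested genes. The cell cycle word TTTGAA (CHR) was in 1 member, DBF4, or 2.27%, against 14.0% of tested genes. Of the 22 members with an E2F-type word, 18 held one between 70 bases before and 50 bases after the start. The same share over all tested genes with such a word is not given here, so the 18 describe the members only. A match is a description of the letters and shows no binding.

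The windows below show members that differ in their response. They are printed on the gene's own strand, 5′ to 3′, with the start after base 250 and with capitals marking E2F-type words and CCAAT in either orientation. The first 4 are genes of strongly lower level in YW-LF, MCM7 is a gene with the same words whose YW-LF libraries disagree, and ORC5 is a gene with neither word and overlapping groups.
MCM3 (chr6:52284693-52284992, minus strand): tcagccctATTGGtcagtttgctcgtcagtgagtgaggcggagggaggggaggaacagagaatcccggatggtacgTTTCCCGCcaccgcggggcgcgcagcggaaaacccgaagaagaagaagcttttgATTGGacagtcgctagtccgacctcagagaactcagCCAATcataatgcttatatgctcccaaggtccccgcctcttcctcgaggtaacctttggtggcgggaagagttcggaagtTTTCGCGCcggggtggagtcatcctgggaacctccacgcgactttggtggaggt
CLSPN (chr1:35769929-35770228, minus strand): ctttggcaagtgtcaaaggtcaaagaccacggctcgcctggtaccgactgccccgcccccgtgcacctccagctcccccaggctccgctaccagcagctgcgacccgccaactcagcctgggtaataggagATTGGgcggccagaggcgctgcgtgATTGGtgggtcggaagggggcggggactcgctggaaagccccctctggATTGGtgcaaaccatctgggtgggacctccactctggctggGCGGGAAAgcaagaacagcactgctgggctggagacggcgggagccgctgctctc
PCNA (chr20:5126573-5126872, minus strand): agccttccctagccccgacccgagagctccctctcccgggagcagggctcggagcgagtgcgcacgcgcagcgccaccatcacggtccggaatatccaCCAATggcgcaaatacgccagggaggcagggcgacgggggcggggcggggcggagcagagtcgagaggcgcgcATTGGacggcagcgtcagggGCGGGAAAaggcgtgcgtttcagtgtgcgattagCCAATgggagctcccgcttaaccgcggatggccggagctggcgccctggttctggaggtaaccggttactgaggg
POLE2 (chr14:49688165-49688464, minus strand): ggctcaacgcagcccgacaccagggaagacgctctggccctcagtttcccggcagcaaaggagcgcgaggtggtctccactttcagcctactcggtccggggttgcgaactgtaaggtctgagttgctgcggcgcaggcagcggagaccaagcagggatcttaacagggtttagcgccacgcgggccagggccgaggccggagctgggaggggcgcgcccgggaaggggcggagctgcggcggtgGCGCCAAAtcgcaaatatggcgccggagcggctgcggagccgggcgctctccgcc
MCM7 (chr7:100101348-100101647, minus strand): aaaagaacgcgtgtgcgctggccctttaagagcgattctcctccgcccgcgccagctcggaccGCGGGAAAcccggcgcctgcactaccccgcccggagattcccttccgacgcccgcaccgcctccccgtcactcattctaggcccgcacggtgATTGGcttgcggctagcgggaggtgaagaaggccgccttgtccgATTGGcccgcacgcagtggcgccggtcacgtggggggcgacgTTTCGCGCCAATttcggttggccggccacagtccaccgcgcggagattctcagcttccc
ORC5 (chr7:104207964-104208263, minus strand): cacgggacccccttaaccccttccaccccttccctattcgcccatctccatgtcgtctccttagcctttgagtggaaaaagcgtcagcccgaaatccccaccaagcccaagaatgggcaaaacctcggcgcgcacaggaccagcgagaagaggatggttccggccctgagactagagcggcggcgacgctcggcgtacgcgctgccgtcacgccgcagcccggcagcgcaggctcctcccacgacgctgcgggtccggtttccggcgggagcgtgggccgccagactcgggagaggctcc
In these windows the E2F-type word nearest to the start began 4 bases before it in MCM3, 5 in CLSPN, 59 in PCNA, 5 in POLE2 and 9 in MCM7. MCM6 held 4 E2F-type matches as 2 overlapping pairs, and in MCM7 a CCAAT shares its first base with the end of an E2F-type word.

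The 22 members with an E2F-type word had a median log2 fold change of -1.31 (range -3.32 to -0.19), and the 22 without one had a median of -0.64 (range -2.30 to 0.22). The ranges overlap widely: CHAF1B (-2.30) and MCM10 (-2.19) held no E2F-type word, while ORC3 (-0.33), MCM7 (-0.33) and RFC3 (-0.19) did. The search took exact words only. TTTGGCGG, which differs from TTTGGCGC in its last letter, is in windows of MCM10, CDC45 and CHAF1A, which count as holding no E2F-type word. The split of the members therefore depends on the word list. With CCAAT the median was -1.13 over 26 genes, and without it -1.07 over 18. No test was made of these medians, since genes are not replicates.

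**Figure D2:**
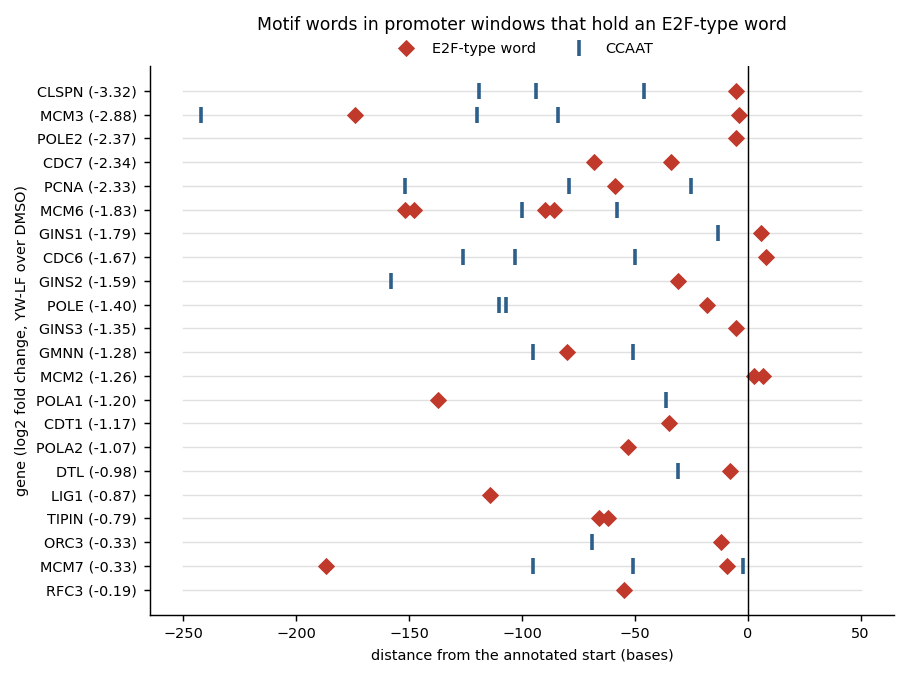
Position of E2F-type words (red diamonds) and CCAAT (blue bars) in the promoter windows that hold an E2F-type word, in bases from the annotated start, with genes ordered by log2 fold change of YW-LF over DMSO (in brackets). In 18 of 22 genes an E2F-type word lies within 70 bases before or 50 bases after the start.

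The subcomplexes differed in their median log2 fold change. The chromatin assembly factor (-1.88, 2 genes), the helicase activation group (-1.81, 8 genes), the MCM2 to MCM7 ring (-1.55, 6 genes) and polymerases delta and epsilon (-1.40, 5 genes) had the lowest medians. The licensing group (-1.22, 4 genes) and polymerase alpha with primase (-1.07, 4 genes) followed. The fork protection group (-0.70, 4 genes), the clamp and ligation group (-0.63, 8 genes), the RPA complex (-0.37, 3 genes) and ORC (-0.35, 6 genes) lay nearest to 0. These medians describe the genes and were not tested against each other. All 10 medians were below 0 in each fit, also when 1 library was left out, but their order was not the same. The fork protection median was -0.40 and the ORC median -0.56 when YW-LF replicate 1 was left out. Leaving out YW-LF replicate 2 gave -1.27 for fork protection and -0.25 for ORC.

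**Figure D3:**
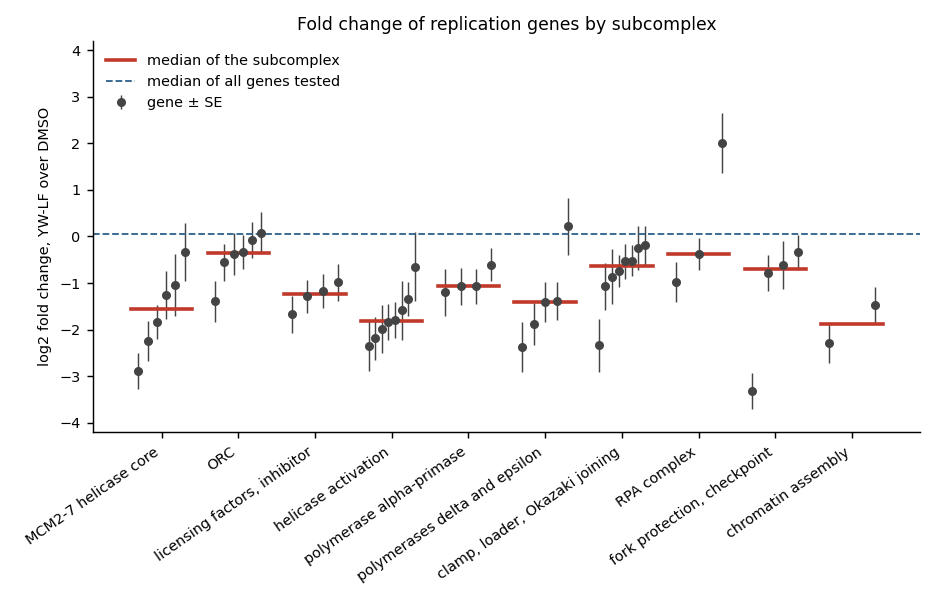
Log2 fold change of YW-LF over DMSO for each member (black points with standard errors from edgeR), by subcomplex, with subcomplex medians in red and the median of all genes tested as a dashed line. ORC and RPA medians lie near -0.4, helicase activation and chromatin assembly medians near -1.8, and RPA3 alone lies above 1.

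Of the 6 ORC genes, ORC1 differed most. ORC1, the large ATPase subunit whose level cycles in human cells, was at 8.02 and 13.9 CPM in YW-LF libraries, against 26.6 and 30.8 CPM in DMSO libraries. Its groups did not overlap, and the log2 fold change was -1.39 (SE 0.44, edgeR adjusted p = 0.168). ORC2, another core subunit, stood at 24.3 and 18.3 CPM in YW-LF libraries and at 36.4 and 26.1 CPM in DMSO libraries, so that YW-LF replicate 1 lay just below DMSO replicate 2. ORC3 was at 46.7 and 33.7 CPM in YW-LF libraries and at 50.4 and 51.1 CPM in DMSO libraries. The other 3 overlapped between groups. ORC4 had 52.5 and 25.5 CPM in YW-LF libraries, above and below the 39.4 and 34.4 CPM in DMSO libraries, and its log2 fold change of 0.08 (SE 0.44) turned negative without YW-LF replicate 1 (-0.54), without DMSO replicate 2 (-0.03) and with the replicate block (-0.01). ORC5 was at 17.6 and 15.7 CPM in YW-LF libraries and at 15.5 and 19.4 CPM in DMSO libraries, a log2 fold change of -0.07 (SE 0.39). It turned positive with library size as the only scaling (0.05), on leaving out DMSO replicate 2 (0.09) and on leaving out YW-LF replicate 2 (0.0036). ORC6 was at 20.5 and 28.1 CPM in YW-LF libraries and at 22.0 and 40.9 CPM in DMSO libraries, and its log2 fold change of -0.37 (SE 0.44) turned positive without DMSO replicate 2 (0.13). ORC4 shares 430 exon bases with the opposite-strand gene ACVR2A.

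All 4 licensing regulators were lower in both YW-LF libraries. CDC6, the ATPase that joins ORC to load MCM rings, was at 34.4 and 51.9 CPM in YW-LF libraries, against 127 and 147 CPM in DMSO libraries (log2 fold change -1.67, SE 0.39, edgeR adjusted p = 0.121). CDT1, which brings the MCM ring to origins, was at 27.8 and 34.2 CPM in YW-LF libraries and at 61.6 and 77.4 CPM in DMSO libraries. GMNN encodes geminin, the inhibitor of CDT1, and was at 19.6 and 18.6 CPM in YW-LF libraries, against 48.4 and 44.6 CPM in DMSO libraries. The genes of the loader CDT1 (-1.17, SE 0.36) and of its inhibitor (-1.28, SE 0.35) therefore had similar fold changes. DTL, the substrate receptor of the ubiquitin ligase that destroys CDT1 in S phase, was at 41.6 and 67.8 CPM in YW-LF libraries and at 97.7 and 119 CPM in DMSO libraries (-0.98, SE 0.40). None of the 4 overlapped, and DESeq2 called CDC6 (adjusted p = 0.0095).

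In the MCM2 to MCM7 ring, 3 subunits were low in both YW-LF libraries and 3 mainly in replicate 1. MCM3 (ENSG00000112118, chromosome 6, 52264009 to 52284881 in GRCh38) averaged 37.4 ± 4.84 CPM in YW-LF libraries and 275 ± 3.87 CPM in DMSO libraries (SD, n = 2 each), a 7.36-fold lower level. Its libraries read 34.0 and 40.8 CPM with YW-LF and 278 and 273 CPM with DMSO (log2 fold change -2.88, SE 0.39, adjusted p = 0.117 by edgeR and 8.5e-08 by DESeq2). MCM4 was at 32.9 and 59.7 CPM in YW-LF libraries, against 218 and 219.7 CPM in DMSO libraries (-2.24, SE 0.44). MCM6 was at 28.7 and 38.5 CPM in YW-LF libraries, against 129 and 110.0 CPM in DMSO libraries (-1.83, SE 0.37). For these 3 genes each YW-LF library was far below the DMSO pair.

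The other 3 ring subunits differed between the YW-LF libraries. MCM2 was at 60.9 and 149 CPM in YW-LF libraries, against 231 and 271 CPM in DMSO libraries (-1.26, SE 0.51). MCM5 was at 31.0 and 132 CPM in YW-LF libraries, against 156 and 181 CPM in DMSO libraries, so replicate 2 lay only a little below the controls (-1.05, SE 0.66, edgeR adjusted p = 0.404). Leaving out YW-LF replicate 1 gave -0.76 for MCM2 and -0.36 for MCM5, and leaving out YW-LF replicate 2 gave -2.05 for MCM2 and -2.45 for MCM5. MCM7 was at 79.5 and 291 CPM in YW-LF libraries, against 229 and 237 CPM in DMSO libraries. Its groups overlapped, and the log2 fold change of -0.33 (SE 0.62) became 0.31 on leaving out YW-LF replicate 1, and -1.56 on leaving out the other. MCM7 shares exon bases with the opposite-strand gene AP4M1, which was at 14.3 and 12.9 CPM in YW-LF libraries and at 16.1 and 18.1 CPM in DMSO libraries.

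Per length, the ring subunits were less even in both YW-LF libraries than in DMSO libraries. As CPM per kilobase of annotated exon, the highest subunit stood above the lowest by 4.29 times in YW-LF replicate 1 (MCM7 over MCM5) and 7.74 times in YW-LF replicate 2 (MCM7 over MCM4). In DMSO replicates 1 and 2 this ratio was 3.59 and 3.03 (MCM3 over MCM5 in both). The same ratio in the RPA complex was 2.75 and 2.61 in YW-LF libraries and 6.75 and 7.76 in DMSO libraries. In ORC, GINS, RFC and polymerase alpha with primase the ratios overlapped between groups. For ORC they were 4.98 and 3.19 in YW-LF libraries and 3.29 and 3.59 in DMSO libraries. In RPA the lowest subunit per kilobase was RPA3 in both DMSO libraries and in YW-LF replicate 1, and RPA2 in YW-LF replicate 2, where RPA3 was the highest. These ratios rest on the exon lengths of GENCODE 29, and which transcripts the cells use was not tested.

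The genes that turn the loaded ring into a working helicase had among the most negative fold changes. CDC7, the kinase that phosphorylates the MCM ring, was at 21.2 and 8.03 CPM in YW-LF libraries, against 80.0 and 68.2 CPM in DMSO libraries (log2 fold change -2.34, SE 0.53, edgeR adjusted p = 0.121). DBF4, its activating subunit, was at 16.9 and 11.4 CPM in YW-LF libraries and at 54.4 and 46.7 CPM in DMSO libraries (-1.84, SE 0.39). Both subunits of the kinase were thus lower in each YW-LF library, and lowest in replicate 2. MCM10, a factor needed for helicase activation, was at 10.1 and 21.3 CPM in YW-LF libraries, against 70.5 and 72.8 CPM in DMSO libraries (-2.19, SE 0.46). All 3 were called lower by DESeq2, with adjusted p of 9.5e-04 for CDC7, 0.0043 for DBF4 and 0.0013 for MCM10.

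The 4 GINS genes encode the subunits of a ring that bridges helicase and polymerase epsilon, and none overlapped between groups. GINS1 was at 12.8 and 10.0 CPM in YW-LF libraries and at 37.1 and 41.8 CPM in DMSO libraries (-1.79, SE 0.38). GINS3 was at 13.5 and 12.9 CPM in YW-LF libraries and at 33.6 and 33.4 CPM in DMSO libraries (-1.35, SE 0.36), the closest replicate agreement of the 4 in both groups. GINS2 was at 5.73 and 21.0 CPM in YW-LF libraries, against 39.0 and 41.3 CPM in DMSO libraries, a wide gap between the treated libraries (-1.59, SE 0.63; -0.94 on leaving out YW-LF replicate 1, and -2.82 on leaving out the other). GINS4 was at 6.65 and 9.90 CPM in YW-LF libraries, against 44.7 and 20.5 CPM in DMSO libraries, where the controls differed more than the treated pair (-1.98, SE 0.52; -1.30 on leaving out DMSO replicate 1). CDC45, the remaining part of the active helicase, did not follow them: it was at 11.7 and 67.1 CPM in YW-LF libraries, against 56.8 and 66.9 CPM in DMSO libraries. Its log2 fold change was -0.65 (SE 0.74), with 0.11 on leaving out YW-LF replicate 1 and -2.41 on leaving out the other.

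Polymerase alpha with primase, which lays down the RNA-DNA primers, was lower as a whole. POLA1, the catalytic subunit, was at 11.7 and 27.3 CPM in YW-LF libraries, against 52.3 and 36.8 CPM in DMSO libraries (-1.20, SE 0.50; -0.71 on leaving out YW-LF replicate 1, and -1.95 on leaving out the other). POLA2, its regulatory subunit, was at 17.0 and 23.1 CPM in YW-LF libraries and at 37.1 and 47.0 CPM in DMSO libraries (-1.07, SE 0.38). PRIM1, the catalytic primase, was at 8.89 and 9.42 CPM in YW-LF libraries and at 18.8 and 19.6 CPM in DMSO libraries (-1.07, SE 0.39). PRIM2, the large primase subunit, was at 36.6 and 33.4 CPM in YW-LF libraries and at 60.6 and 45.7 CPM in DMSO libraries (-0.60, SE 0.36). The groups of all 4 genes were apart, and neither edgeR (lowest adjusted p = 0.198) nor DESeq2 (lowest adjusted p = 0.156) called any of them.

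The 5 members from polymerases delta and epsilon ranged from -2.37 to 0.22. The subunit genes POLD4 (1.08), POLE3 (-0.67) and POLE4 (0.73), which are not members, overlapped between groups. POLE2, the second subunit of the leading-strand polymerase epsilon, was at 5.11 and 13.1 CPM in YW-LF libraries, against 48.6 and 45.8 CPM in DMSO libraries (log2 fold change -2.37, SE 0.53, edgeR adjusted p = 0.121). POLE, the catalytic subunit, was at 37.9 and 72.2 CPM in YW-LF libraries and at 141 and 149 CPM in DMSO libraries (-1.40, SE 0.43). Both polymerase epsilon genes among the members were lower in each YW-LF library, more so in replicate 1. Of the subunits outside the list, POLE3 was at 106 and 172 CPM in YW-LF libraries and at 166 and 276 CPM in DMSO libraries. POLE4 was at 7.72 and 33.9 CPM in YW-LF libraries and at 13.3 and 11.7 CPM in DMSO libraries. For the lagging-strand polymerase delta, the catalytic subunit POLD1 was at 15.8 and 27.5 CPM in YW-LF libraries, against 53.9 and 58.7 CPM in DMSO libraries (-1.38, SE 0.41). POLD1 shares 426 of 4932 exon bases with a gene on the same strand. POLD3, an accessory subunit, was at 22.9 and 11.7 CPM in YW-LF libraries, against 68.3 and 59.3 CPM in DMSO libraries (-1.88, SE 0.44). POLD2, a further accessory subunit, stood apart at 80.8 and 292 CPM in YW-LF libraries, on either side of the 146 and 175 CPM in DMSO libraries. Its log2 fold change of 0.22 (SE 0.62) became 0.86 on leaving out YW-LF replicate 1, and -0.998 on leaving out the other, and it was -0.05 with the replicate block and -0.01 in limma-voom.

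PCNA, the sliding clamp that tethers the polymerases, had the most negative fold change of the clamp and ligation group. PCNA (ENSG00000132646, chromosome 20, 5114953 to 5126626) was at 63.9 and 21.8 CPM in YW-LF libraries, against 216 and 215 CPM in DMSO libraries (log2 fold change -2.33, SE 0.57, adjusted p = 0.127 by edgeR and 0.0011 by DESeq2). The 5 clamp loader genes differed much less. RFC4 was at 37.9 and 31.7 CPM in YW-LF libraries and at 60.8 and 54.8 CPM in DMSO libraries (-0.73, SE 0.35). RFC5 was at 50.2 and 45.8 CPM in YW-LF libraries and at 69.8 and 67.4 CPM in DMSO libraries (-0.52, SE 0.34). RFC1, the large subunit, was at 81.5 and 63.9 CPM in YW-LF libraries and at 119.6 and 90.9 CPM in DMSO libraries (-0.53, SE 0.37). These 3 did not overlap, while RFC2 and RFC3 did. RFC2 had 25.9 and 60.0 CPM in YW-LF libraries against 46.9 and 54.5 CPM in DMSO libraries, and RFC3 had 21.8 and 39.1 CPM in YW-LF libraries against 37.3 and 32.0 CPM in DMSO libraries. The log2 fold change of RFC2 (-0.24, SE 0.47) became 0.24 on leaving out YW-LF replicate 1 and -0.98 on leaving out the other, and that of RFC3 (-0.19, SE 0.42) became 0.17 and -0.68.

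The enzymes that finish Okazaki fragments were low chiefly in YW-LF replicate 1. FEN1, the flap nuclease, was at 48.5 and 119.9 CPM in YW-LF libraries, against 182 and 169.7 CPM in DMSO libraries (-1.07, SE 0.50; -0.56 on leaving out YW-LF replicate 1, and -1.87 on leaving out the other). LIG1, the ligase, was at 18.7 and 64.5 CPM in YW-LF libraries, against 75.9 and 75.6 CPM in DMSO libraries (-0.87, SE 0.59; -0.24 on leaving out YW-LF replicate 1, and -2.03 on leaving out the other). Neither gene overlapped, but replicate 2 was close to the controls in LIG1. GENCODE lists pseudogene copies of PCNA (3), RPA2 (3), DBF4, POLD2, RFC3, RFC5 and FEN1 (1 each), none of which has a row in the count table, so reads shared with those copies could shift these 7 genes.

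The RPA complex coats single-stranded DNA, and its subunits stood on different sides of the DMSO libraries. RPA1, the largest subunit, was at 178 and 105 CPM in YW-LF libraries, against 296 and 264 CPM in DMSO libraries (-0.98, SE 0.43). RPA2 was at 42.1 and 34.9 CPM in YW-LF libraries, against 49.5 and 50.3 CPM in DMSO libraries (-0.37, SE 0.34). RPA3, the smallest subunit, was at 38.0 and 146 CPM in YW-LF libraries, against 25.8 and 19.99 CPM in DMSO libraries. It was the 1 member above DMSO in both YW-LF libraries (log2 fold change 2.01, SE 0.65, adjusted p = 0.176 by edgeR and 0.017 by DESeq2). The value became 2.67 on leaving out YW-LF replicate 1, and 0.72 on leaving out the other. RPA3 shares 118 exon bases with the opposite-strand gene UMAD1, which was at 7.02 and 6.28 CPM in YW-LF libraries and at 3.07 and 3.47 CPM in DMSO libraries. The labels do not say whether counting used the strand, so reads in that stretch cannot be told apart.

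Among fork protection genes CLSPN had by far the most negative fold change. CLSPN (ENSG00000092853, chromosome 1, 35720218 to 35769967) encodes claspin, which carries the checkpoint signal from stalled forks to CHK1. It averaged 8.82 ± 1.16 CPM in YW-LF libraries and 88.03 ± 15.9 CPM in DMSO libraries (SD, n = 2 each), a 9.98-fold lower level. Its libraries read 7.999 and 9.65 CPM with YW-LF and 76.8 and 99.2 CPM with DMSO (log2 fold change -3.32, SE 0.39, adjusted p = 0.117 by edgeR and 2.2e-09 by DESeq2). The log2 fold change of CLSPN was -3.19 on leaving out YW-LF replicate 1 and -3.47 on leaving out YW-LF replicate 2. Its fork partners differed less. TIPIN was at 11.8 and 15.5 CPM in YW-LF libraries and at 24.4 and 22.8 CPM in DMSO libraries (-0.79, SE 0.39). TIMELESS, which binds TIPIN, was at 28.6 and 77.5 CPM in YW-LF libraries and at 83.5 and 79.6 CPM in DMSO libraries, so replicate 2 was just under the controls (-0.62, SE 0.51; -0.08 on leaving out YW-LF replicate 1, and -1.52 on leaving out the other). WDHD1, which links polymerase alpha to the helicase, overlapped at 60.6 and 75.2 CPM in YW-LF libraries and 102 and 70.5 CPM in DMSO libraries.

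Both members from the chromatin assembly factor CAF-1, which places histones on new DNA, were lower in each YW-LF library. CHAF1B was at 9.17 and 12.1 CPM in YW-LF libraries, against 41.8 and 62.7 CPM in DMSO libraries (log2 fold change -2.30, SE 0.41, adjusted p = 0.121 by edgeR and 2.7e-04 by DESeq2). CHAF1A was at 39.9 and 59.0 CPM in YW-LF libraries, against 131 and 143 CPM in DMSO libraries (-1.47, SE 0.38, DESeq2 adjusted p = 0.026). Neither gene overlapped between groups.

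The members split by how the YW-LF libraries behaved. In YW-LF replicate 1, 47 of 50 members lay below both DMSO libraries (41.9% of all genes), with a median log2 difference from the DMSO mean of -1.53. In YW-LF replicate 2, 41 lay below (45.6% of all genes), with a median of -0.86. MCM7, CDC45, POLD2, RFC2 and RFC3 were below both DMSO libraries in replicate 1 and above both in replicate 2, and ORC4 did the reverse. PCNA (-1.55), CDC7 (-1.39), ORC4 (-1.04) and POLD3 (-0.96) were lower in replicate 2 than in replicate 1, while CDC45 (2.51), MCM5 (2.09), RPA3 (1.94) and MCM7 (1.87) were higher there, as log2 differences of replicate 2 minus replicate 1. MCM3, CLSPN, GINS3 and GMNN differed by at most 0.27 between the YW-LF libraries.

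**Figure D4:**
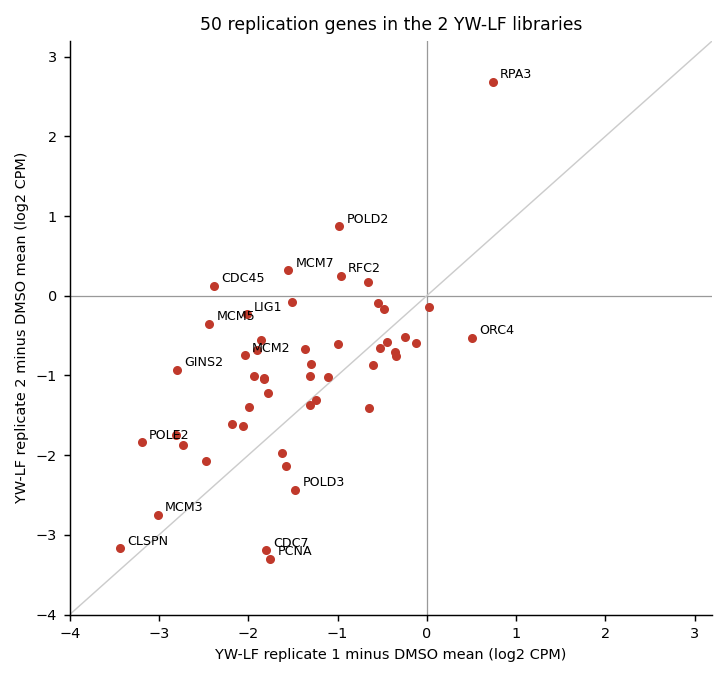
Log2 CPM of each member minus its DMSO mean, in YW-LF replicate 1 (horizontal) and replicate 2 (vertical), with the line of equal values; both axes share the same DMSO mean. CLSPN and MCM3 lie at the lower left in both libraries, CDC45, MCM7 and POLD2 are below 0 in replicate 1 and above 0 in replicate 2, and PCNA and CDC7 lie below the line.

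This replicate difference moved with the G+C content of the transcripts. Across the 50 members, the log2 difference of YW-LF replicate 2 minus replicate 1 had a Spearman correlation with the G+C content of the longest GENCODE 29 transcript of 0.60 (Pearson 0.54), and across 13800 genes it was 0.087. Between the DMSO replicates the same correlation was 0.52 over the members and 0.31 over 13800 genes. Genes of one library share its preparation and depth, so these values are a description. All 16 members with a G+C content of at least 50%, a limit chosen after seeing the values, were higher in YW-LF replicate 2 than in replicate 1 (median 1.25), against 17 of the 34 members under 50% (median 0.01). Over all genes tested, of any G+C content, 49.5% were higher in YW-LF replicate 2. The fold change of YW-LF over DMSO itself had a Spearman correlation with G+C content of -0.09 over the members. With each library corrected for transcript length and G+C content, the median log2 fold change of the members was -1.12. Both YW-LF libraries then lay below DMSO in 43 members. Before the correction this held for 40 members and 27.8% of all genes tested. The share over all genes after the correction is not given here, so the 2 member counts cannot be compared. The correction was fitted over all genes, where the correlation was 0.087. Whether it removed the trend of 0.60 among the members was not tested. The part of G+C content in the difference between the YW-LF libraries was not tested.

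**Figure D5:**
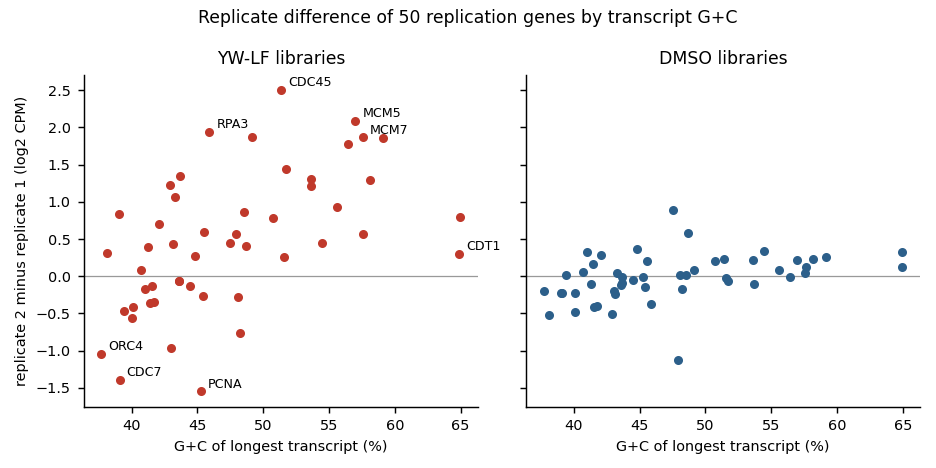
Log2 CPM of replicate 2 minus replicate 1 for each member against the G+C percentage of its longest transcript, in YW-LF (left) and DMSO (right). All 16 members at 50% G+C or more lie above 0 in YW-LF, and the DMSO differences are smaller.

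Of 36 further replication genes, 18 had each YW-LF library below each DMSO library and 3 had each above (27.8% and 28% of all genes). Their median log2 fold change was -0.63. The edgeR test called 0 of them after adjustment, as of all genes (0%). At an unadjusted p under 0.05, 13 were lower and 0 higher, against 9.01% and 11.5% of all genes. DESeq2 called 5 lower and 0 higher, against 4.26% and 5.77%. The lowest p-values were in FAM111A, a protease that acts at forks with protein obstacles, at 21.5 and 14.5 CPM in YW-LF libraries against 135 and 80.9 CPM in DMSO libraries (-2.58, SE 0.45). DSCC1, of an alternative clamp loader, was at 7.004 and 6.18 CPM in YW-LF libraries and at 26.4 and 23.0 CPM in DMSO libraries (-1.91, SE 0.40). DNA2, a nuclease of Okazaki flaps, was at 9.21 and 6.51 CPM in YW-LF libraries and at 28.1 and 27.4 CPM in DMSO libraries (-1.82, SE 0.41). All 3 were low in both YW-LF libraries, with an edgeR adjusted p of 0.121 each.

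Chosen after their values were seen, MCM8, MCM9, MCMBP, DBF4B and TICRR are examples of the genes below DMSO in both YW-LF libraries. The MCM-related MCM8, MCM9 and MCMBP had log2 fold changes of -1.02, -1.18 and -1.18. DBF4B, a second activator of CDC7, was at 19.1 and 20.7 CPM in YW-LF libraries and at 48.2 and 54.1 CPM in DMSO libraries (-1.36, SE 0.35). TICRR, which brings CDC45 to origins, was at 17.4 and 23.1 CPM in YW-LF libraries and at 39.2 and 48.9 CPM in DMSO libraries (-1.12, SE 0.37). The 3 genes above DMSO in both YW-LF libraries were TOP1, LRWD1 and USP37. TOP1, the topoisomerase that relieves twist ahead of the fork, was at 338 and 579.7 CPM in YW-LF libraries and at 317 and 298 CPM in DMSO libraries (0.58, SE 0.46, edgeR adjusted p = 0.508). LRWD1, an ORC-associated protein, had a log2 fold change of 0.34 (SE 0.36) and USP37, a deubiquitinating enzyme, one of 0.28 (SE 0.35). USP37 shares 3045 of its 9290 exon bases with the opposite-strand gene VIL1. TOP1, LRWD1 and USP37 did not pass the test by edgeR or DESeq2. The other 15 further genes overlapped between groups. Among them CHTF8 (1.18), POLD4 (1.08), CHTF18 (0.79) and POLE4 (0.73) had higher log2 fold changes than TOP1. Of the 36 further genes, 26 had a log2 fold change below 0, beside 47.5% of all genes tested.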

How the data were processed

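The authors deposited read counts per gene (whole numbers, not normalized, judging by the values) for 2 YW-LF and 2 DMSO libraries. Per the submitters' processing notes the genome was mouse (GRCm38, mm10), but the row identifiers are human Ensembl genes. Aligner, counter and annotation: not given in the sources used here. A second table repeats the DMSO counts beside 2 columns without a matching label, and was left unused.

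Genes were tested with edgeR 4.0.16 (R 4.3.3): filterByExpr (13816 genes kept), TMM scaling, a two-sided quasi-likelihood F-test on the 4 libraries with treatment as the single term, and Benjamini-Hochberg adjustment over all genes tested at 0.05. The SE is the size of the log2 fold change divided by the square root of F. Log2 CPM used a prior count of 2. Alternatives were DESeq2 1.42.0, limma-voom (limma 3.58.1), other scalings and filters, the replicate number as a block, removal of mitochondrially encoded genes and leaving out each library. A loess correction (span 0.5) for transcript length and G+C content was added after seeing the data. The scripts were tested on simulated data.

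Transcript lengths, G+C content, gene coordinates and exon overlaps came from GENCODE 29 (GRCh38). Members and lists were chosen with earlier results of these data known. The rule for full values took members whose groups were apart with a log2 fold change of at least 2 in size, those nearest to or above 0 and the lowest p in each subcomplex. Of the further replication genes it took the 3 with the lowest p and those above 0 with groups apart. The other members and further genes named were added beyond that rule.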

Additional observations from a re-analysis of the deposited data

How the results depend on the processing

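DESeq2 called 616 genes lower and 835 higher (1451 in all), among them 16 members lower, 1 member higher and 5 other replication genes. Without a count filter (total count of at least 1), edgeR called 120 and 155 (275 in all), with 6 members lower and 1 other replication gene. The replicate block gave 145 and 186 (331 in all), 8 members lower and 1 other replication gene. With this block ORC4 (-0.0069) and POLD2 (-0.053) turned negative. No label ties the replicate numbers to a batch, and deviations of same-numbered libraries correlated at 0.037 over 13816 genes. Whether same-numbered libraries share a batch was not tested, and 1 correlation over genes of 2 pairs cannot decide it. The other scalings, limma-voom, the stricter filter, the removal of mitochondrially encoded genes and the length and G+C correction called 0 genes. POLD2 turned negative in limma-voom (-0.014) and ORC5 positive with library size alone (0.054), and the RPA median was -0.64 with the length and G+C correction. Leaving out 1 library gave 64 to 5882 genes called (16 to 2919 lower, 46 to 2963 higher), 1 to 36 members lower, 0 to 2 higher, 14 to 38 lower at an unadjusted p under 0.05, and 0 to 17 other replication genes called. The count of other replication genes with YW-LF below DMSO was 19 to 30, under a condition that is easier to meet with fewer libraries. Over these fits the helicase activation median ran from -2.06 to -1.67 and that of the clamp and ligation group from -0.83 to -0.56. The log2 fold changes that turned sign ran from -1.56 to 0.31 in MCM7, -0.54 to 0.50 in ORC4, -0.21 to 0.092 in ORC5, -0.74 to 0.13 in ORC6, -2.41 to 0.11 in CDC45, -0.998 to 0.86 in POLD2, -0.98 to 0.24 in RFC2 and -0.68 to 0.17 in RFC3. The causes were not tested. With 2 libraries a group, each spread rests on a single pair. The lowest member count was 248.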
